A study of Homo sapiens with 9 samples.

Results

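The genes described here copy DNA or prepare cells for S phase: 45 genes of origin licensing, helicase activation, DNA polymerases, the sliding clamp and lagging-strand synthesis, nucleotide supply, chromatin copying, and the cyclin E and E2F factors that open S phase. They were taken from a list of names that was chosen with earlier results of these data known. The probe set with the highest mean signal over the 9 arrays stood for each gene. All 45 had a probe set and all 45 passed the filter on dim genes, out of 19775 genes with a probe set and 13797 genes kept. All RNA came from SK-N-AS, an established line of human neuroblastoma, a childhood tumour of the sympathetic nervous system. Cells in the full-length series received the construct RE-EX1, which over-expresses full-length NRSF, cells in the truncated series received HZ4, which over-expresses a truncated NRSF variant, and cells in the last series were untreated. Each of these 3 series has 1 array at 0 h, its baseline, 1 at 24 h and 1 at 48 h, so there are 9 groups of 1 array. NRSF is encoded by REST and represses neuronal genes.

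Neither the promoter of the constructs nor the way they were delivered is given in the sources used here. Since the untreated cells carry no construct, NRSF and the delivery of DNA cannot be told apart. Triplicates and batches are mentioned in the description of the series, but no label ties an array to either of them. REST signal was 171, 162 and 177 at 0 h (full-length series, truncated series, untreated series), 268, 323 and 445 at 24 h, and 274, 342 and 260 at 48 h. It was higher at 24 and 48 h in all 3 series, the untreated one included, so this probe set does not set the construct series apart from the untreated cells.

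DNA replication begins when the origin recognition complex, CDC6 and CDT1 load a ring of MCM proteins onto DNA in G1. CDC45 and the GINS complex then turn that ring into a moving helicase, and polymerases alpha, delta and epsilon copy both strands behind it with the help of the clamp PCNA. Cyclin E and the activating E2F factors drive this step, and many replication genes are themselves textbook E2F targets, transcribed in late G1 and S phase.

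Across the series, the scaled mean signal of each array was 150, the median signal was 30.9 to 42.7, and 21.9% to 26.9% of the values of an array lay at or below the floor of 8.27. The truncated 24 h array stood apart: its median correlation with the other arrays across genes was 0.909, against 0.921 to 0.931 for the rest (genes are not independent replicates), and the median of its dimmest 20% of genes was 0.52 log2 higher than these genes' mean. Where a call at 24 h was lost without that array, the value without it is given beside the call. For ACTB, 3' over 5' control signal ran from 2.25 to 4.19. Of the 8 mesenchymal neuroblastoma markers, 8 passed the filter, and of the 8 sympathoadrenal markers 7 had a probe set and 5 passed. Those 5 were PHOX2A, HAND2, GATA2, GATA3 and ISL1, with GATA3 the brightest (1346 to 1912). Tyrosine hydroxylase (TH) and DBH, enzymes of noradrenaline synthesis, did not pass. The summed signal of the mesenchymal list was 23130 to 26440 at 0 h, 19050 to 21610 at 24 h and 21430 to 25530 at 48 h. Among markers of other cells, 1 of 6 epithelial, 2 of 6 blood, 1 of 6 endothelial and 2 of 6 Schwann and melanocyte genes passed the filter. Those that passed were CLDN4 (epithelial), PTPRC and HBB (blood), PECAM1 (endothelial), and MITF and PMEL (Schwann and melanocyte). The epithelial marker EPCAM, the endothelial marker CDH5 and the Schwann cell marker SOX10 did not pass. The blood list summed to 135 to 171 at 0 h, 155 to 237 at 24 h and 219 to 249 at 48 h, the epithelial list to 107 to 143, 118 to 168 and 107 to 180, the endothelial list to 163 to 223, 138 to 264 and 176 to 264, and the Schwann and melanocyte list to 126 to 171, 164 to 362 and 129 to 205. The part of the mesenchymal and blood lists in the results was not tested.

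The series' design compares each time with its baseline, and here the 3 series served as the replicates of the time course, in a model of series and time fitted with limma across all 13797 genes. At 24 h, 17 of the 45 genes had fallen at a Benjamini-Hochberg adjusted p below 0.05 and 0 had risen, against 8.26% of all genes down and 8.12% up. Without the truncated 24 h array 8 genes were down, against 4.82% of all genes, and without 1 whole series 6 to 11, against 3.18% to 5.18%. The list was lower in 36 of 45 genes, with a median change of -0.49 log2 (1.40-fold lower) against -0.03 for all genes. Without the adjustment, limma gave 24 of 45 genes down and 0 up at p below 0.05, against 2064 and 1834 of all 13797 genes. At 48 h, 6 genes were down and 0 up, against 3.92% and 4.52% of all genes. In all, 38 of 45 were lower, and the median was -0.34 against -0.01. At an unadjusted p below 0.05, limma gave 19 down and 1 up, against 1594 and 1549 of all 13797 genes. Without 1 whole series 1 to 3 genes were down at 48 h, against 0.59% to 2.20% of all genes. None of the 6 kept its call in all of these fits. Where limma did not tie variance to signal, 1 gene was down at 24 h and 0 at 48 h, against 1.57% and 0.036%. Both comparisons share the 0 h arrays, and the list was chosen with earlier results of these data known. On bulk RNA, fewer cells in S phase and less of these transcripts in each cell cannot be told apart.

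Signals of the 24 h arrays lay below all 3 baseline arrays, with no overlap, for 23 of 45 genes, against 15.5% of all genes, and above them for 0 genes, against 14.4%. The same held for 22 genes at 48 h, against 14.2%, and for 0 genes above, against 13.6%. Counted by series, 27 genes were lower at 24 h in all 3 series, against 24.4% of all genes, and 28 at 48 h, against 22.4%. The heat map of the 45 genes shows these values array by array.

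**Figure D1:**
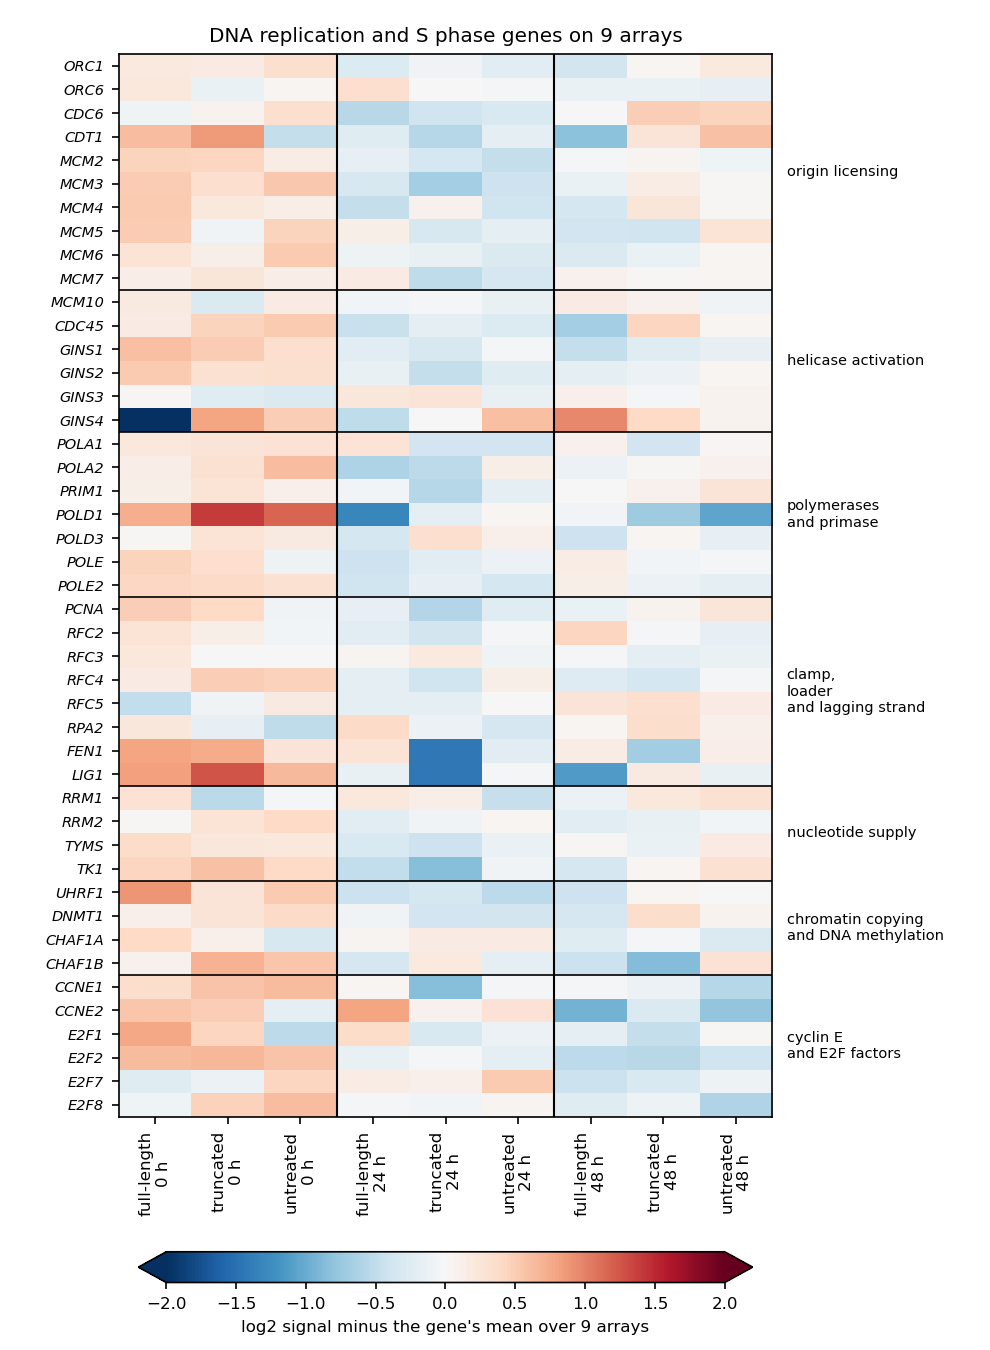
Log2 signal of each of the 45 genes (rows, in blocks by role) on each of the 9 arrays (columns, by hour and then series), as the difference from that gene's mean over the arrays; the colour scale ends at 2 log2 in both directions. The 0 h columns are mostly above and the 24 h columns mostly below each gene's mean, and the medians of the genes' log2 signal run from 8.20 on the truncated 24 h array to 8.96 on the full-length 0 h array.

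Promoters of these genes were searched for strings known from cell cycle genes. The RefSeq promoter table (GRCh38.p14, 250 bases before to 50 after each gene's start) held 38 of the 45 genes. An E2F string (TTTCCCGC, TTTCGCGC, TTTGCCGC or TTTGGCGC, on either strand) stood in 21 of 38 promoters (55.3%), against 908 of all 27305 promoters (3.3%). Among genes that fell at 24 h it stood in 13 of 17 (76.5%), and among those not called in 8 of 21 (38.1%). The list was drawn up from genes known for S phase, many of them textbook E2F targets, so these shares describe the list and are not independent of it. A CCAAT box (CCAAT, either strand) stood in 21 of 38 promoters (55.3%), against 35.7% of all, and a CHR string (TTTGAA or TTCGAA, either strand), known from mitosis genes, in 2 of 38 (5.3%), against 16.6%. Of 25 promoters of G2 and mitosis genes, 3 held an E2F string, 19 (76.0%) CCAAT and 18 (72.0%) CHR. A match is a description of letters, and no binding was measured.

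The 13 windows that follow show the E2F string nearest the start site of each gene that fell at 24 h and holds one, so that the likeness of the strings and their place can be seen. Each is 24 bases on the gene's strand, 5′ to 3′, with the E2F string in capitals; the sequences are from RefSeq, build GRCh38.p14. In MCM2 the string overlaps its own reverse complement, and in MCM6 it overlaps an E2F string of the other orientation. Of the 13 strings, 11 begin within 60 bases of the start, 3 of them after it, and the farthest, in LIG1, begins 114 bases before it.
LIG1, chr19:48170443-48170466, minus strand: tcacccctTTTCCCGCcctcctcc
UHRF1, chr19:4909479-4909502, plus strand: gagttttcGCGGGAAAaaaatcag
MCM3, chr6:52284731-52284754, minus strand: tcggaagtTTTCGCGCcggggtgg
E2F2, chr1:23531260-23531283, minus strand: gcacgacgTTTGGCGCtaaaaaaa
MCM2, chr3:127598405-127598428, plus strand: gaaccactTTTCGCGCgaaacctg
GINS2, chr16:85688970-85688993, minus strand: tcgccgtgGCGGGAAAacggcggc
POLE2, chr14:49688204-49688227, minus strand: cggcggtgGCGCCAAAtcgcaaat
GINS1, chr20:25407670-25407693, plus strand: tttgttcgGCGCCAAAgcgcggag
PCNA, chr20:5126666-5126689, minus strand: cgtcagggGCGGGAAAaggcgtgc
TYMS, chr18:657606-657629, plus strand: ggacggccGCGGGAAAaggcgcgc
CDC6, chr17:40287878-40287901, plus strand: cattcggaTTTGGCGCgagcgcgg
DNMT1, chr19:10194940-10194963, minus strand: cggtttccGCGCGAAAagccgggg
MCM6, chr2:135876514-135876537, minus strand: caggtttgGCGCGAAAtctccagc

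Longer promoters are shown for the 4 genes with the largest falls at 24 h, because the strings are present in some of them and not in others. LIG1 and UHRF1 hold an E2F string, UHRF1 also a CCAAT box (reading forward), and both kinds are in capitals; POLD1 and FEN1, which fell by the largest and the third largest amounts, hold none of the strings in their 300 bases. Each stretch is the 250 bases before the start on the gene's strand, from RefSeq, GRCh38.p14.
POLD1, chr19:50384073-50384322, plus strand: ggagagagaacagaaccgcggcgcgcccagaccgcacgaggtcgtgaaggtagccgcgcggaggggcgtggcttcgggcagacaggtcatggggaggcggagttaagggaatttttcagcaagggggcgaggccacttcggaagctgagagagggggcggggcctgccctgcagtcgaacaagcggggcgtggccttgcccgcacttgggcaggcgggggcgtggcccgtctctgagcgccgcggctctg
LIG1, chr19:48170345-48170594, minus strand: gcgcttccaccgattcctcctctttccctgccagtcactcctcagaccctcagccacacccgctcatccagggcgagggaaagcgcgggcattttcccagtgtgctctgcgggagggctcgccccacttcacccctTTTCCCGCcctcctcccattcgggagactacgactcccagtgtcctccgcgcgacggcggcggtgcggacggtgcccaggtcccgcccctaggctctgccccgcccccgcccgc
FEN1, chr11:61792661-61792910, plus strand: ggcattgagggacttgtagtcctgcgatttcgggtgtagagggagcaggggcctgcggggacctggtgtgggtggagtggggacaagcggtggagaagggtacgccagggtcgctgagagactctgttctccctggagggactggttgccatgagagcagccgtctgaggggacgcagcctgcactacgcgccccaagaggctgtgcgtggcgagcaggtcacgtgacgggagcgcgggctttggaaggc
UHRF1, chr19:4909251-4909500, plus strand: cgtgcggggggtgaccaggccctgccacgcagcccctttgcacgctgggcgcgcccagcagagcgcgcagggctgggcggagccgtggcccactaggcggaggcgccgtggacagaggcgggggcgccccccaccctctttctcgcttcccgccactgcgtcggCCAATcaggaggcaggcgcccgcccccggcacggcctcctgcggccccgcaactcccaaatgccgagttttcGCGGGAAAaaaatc

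Of the 10 origin licensing genes, MCM2, MCM3, MCM6 and CDC6 fell at 24 h and 0 were called at 48 h; the medians were -0.51 and -0.32 log2. MCM3, a subunit of the MCM ring, read 937, 832 and 954 at 0 h (full-length, truncated and untreated series, an order kept from here on), 525, 412 and 492 at 24 h, and 604, 729 and 669 at 48 h. Every 24 h array was below every 48 h array, and every 48 h array below every baseline array. The fall at 24 h was 0.93 ± 0.16 log2 (SE from limma, 1.91-fold, 95% interval -1.27 to -0.60, limma adjusted p = 0.000723). At 48 h the difference was -0.45 ± 0.16 (adjusted p = 0.0906). MCM2, another subunit of the ring, read 1193, 1181 and 971 at 0 h, 781, 683 and 629 at 24 h, and 858, 911 and 821 at 48 h. Its 24 h and 48 h arrays all lay below the baseline, and it fell at 24 h by 0.68 ± 0.14 (adjusted p = 0.00346). MCM6 went from 1626, 1458 and 1918 to 1248, 1209 and 1096 and then to 1098, 1226 and 1372. Its groups did not overlap with the baseline at either time, and the 24 h fall was 0.49 ± 0.15 (adjusted p = 0.0312), or -0.55 without the truncated 24 h array, at the threshold and not called (adjusted p = 0.05).

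CDC6, the ATPase that helps load the MCM ring, was the 1 gene of the list called both lower at 24 h and higher from 24 to 48 h. Its signal was 363, 408 and 490 at 0 h, 262, 293 and 312 at 24 h, and 388, 543 and 526 at 48 h. All 24 h arrays were below all others, and the 48 h array of each series was above that series' baseline. CDC6 fell at 24 h by 0.53 ± 0.17 (adjusted p = 0.0395) and rose from 24 to 48 h by 0.74 ± 0.17 (adjusted p = 0.0225); 48 h over 0 h was 0.20 ± 0.17 (adjusted p = 0.52). Without the truncated 24 h array its 24 h difference was -0.51 (adjusted p = 0.12) and the rise to 48 h was no longer called. From 24 to 48 h, 1 of the 45 genes rose and 1 fell, against 1.73% and 1.80% of all genes, and the median change was 0.17 log2 against 0.01. The list is brighter than most genes, with array medians of 8.20 to 8.96 log2 against 7.35 to 7.44. Relative to each gene's mean, the brightest 20% of all genes had medians of 0.01, -0.12 and -0.04 at 24 h. At 48 h these were 0.02, 0.07 and 0.10. The part of brightness in the list's change was not tested.

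On their brightest probe sets the other MCM ring genes were lower at 24 h without passing the threshold. MCM4 stood at -0.55 ± 0.18 (adjusted p = 0.0514, just outside the threshold), MCM5 at -0.43 ± 0.22 (adjusted p = 0.22) and MCM7 at -0.39 ± 0.16 (adjusted p = 0.0991). The other MCM4 probe sets above the filter stood at -0.32, -0.18 and -0.15. The other probe set of MCM5, a dim one, stood at 0.04 ± 0.45, and that of MCM7 at -0.35. ORC1, a subunit of the origin recognition complex, stood at -0.41 ± 0.24 (adjusted p = 0.29). ORC6, of the same complex, changed least in the group, at 0.07 ± 0.15 (adjusted p = 0.82), from 831, 653 and 741 to 908, 719 and 707 at 24 h and 656, 658 and 645 at 48 h. Its groups overlapped, and its probe set may cross-hybridize. CDT1, the loader of the MCM ring, moved in opposite directions between series and is taken up with the constructs.

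GINS1 and GINS2, of the GINS complex, fell at 24 h, and GINS1 also at 48 h; the medians of the 6 genes were -0.38 and -0.20. GINS1 read 778, 724 and 643 at 0 h, 441, 412 and 505 at 24 h, and 366, 432 and 456 at 48 h. All later arrays lay below all baseline arrays. GINS1 fell by 0.66 ± 0.17 at 24 h (adjusted p = 0.012; -0.58, adjusted p = 0.065, without the truncated 24 h array) and by 0.78 ± 0.17 at 48 h (1.71-fold; adjusted p = 0.00868). GINS2, whose probe set may read more than this gene's transcripts, went from 500, 431 and 435 to 314, 251 and 295 and then to 303, 321 and 359. These groups did not overlap with the baseline either, and the fall at 24 h was 0.67 ± 0.18 (adjusted p = 0.0154). It was -0.60 (adjusted p = 0.068) without the truncated 24 h array, and a dim probe set without that mark stood at -0.07.

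The remaining GINS genes did not pass the test. GINS3 was higher in all 3 series at both times, at 0.28 ± 0.17 at 24 h (adjusted p = 0.29), and was not called. GINS4 was dim and rested on a single array: its full-length baseline of 6.88 was below the floor, and the other 8 arrays read 40.4 to 112, so its 24 h value of 0.54 ± 0.64 (adjusted p = 0.64) has that floor in it. CDC45, which completes the helicase, had the largest 24 h difference of the group, -0.68 ± 0.25 (adjusted p = 0.0764). It read 178, 219 and 230 at 0 h, 118, 140 and 133 at 24 h, and 99.5, 215 and 164 at 48 h, so the 24 h arrays lay below the baseline and the 48 h arrays overlapped with it. MCM10, a helicase activator, had the smallest, at -0.10 ± 0.17 (adjusted p = 0.77), from 548, 396 and 543 to 466, 473 and 438 and then 543, 514 and 459, with overlap at both times.

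**Figure D2:**
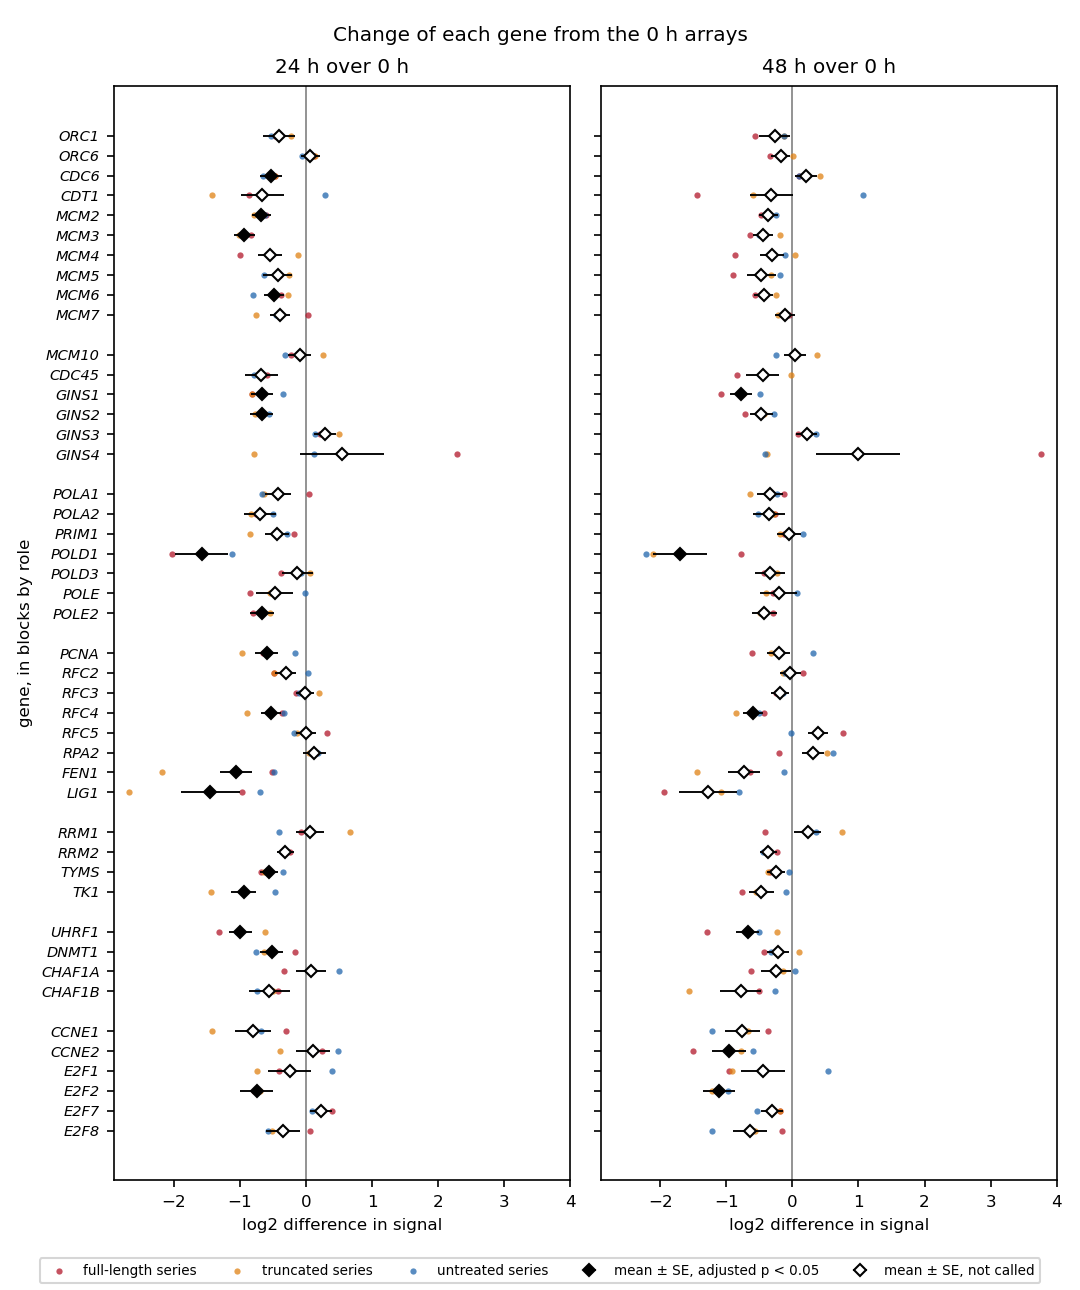
Difference of each gene from its 0 h arrays at 24 h (left) and 48 h (right), in log2 signal; coloured points are the 3 series, diamonds the mean over series with its standard error from limma, filled where the adjusted p was below 0.05. At 24 h 17 diamonds are filled and at 48 h 6, all left of the zero line; the full-length points of GINS4 at the far right rest on a baseline below the floor.

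POLD1, the catalytic subunit of polymerase delta, had the largest fall of the 45 genes at both times. Its signal was 138, 219 and 186 at 0 h, 33.7, 72.8 and 85.5 at 24 h, and 80.0, 50.8 and 39.8 at 48 h. No later array reached the lowest baseline, but the full-length series was lowest at 24 h and highest at 48 h, so the spread between series was wide. The falls were 1.58 ± 0.41 log2 at 24 h (2.99-fold; adjusted p = 0.0133) and 1.70 ± 0.41 at 48 h (3.26-fold; adjusted p = 0.0158). POLE2, a subunit of polymerase epsilon, read 370, 362 and 342 at 0 h, 211, 249 and 218 at 24 h, and 301, 257 and 245 at 48 h. Its 24 h and 48 h arrays were all below the baseline; the fall at 24 h was 0.67 ± 0.19 (adjusted p = 0.0223) and the 48 h difference was -0.42 ± 0.19 (adjusted p = 0.19).

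The other polymerase genes were lower but not called at 24 h. POLA2, of polymerase alpha, stood at -0.70 ± 0.24 (adjusted p = 0.0577), POLE at -0.47 ± 0.28, the primase gene PRIM1 at -0.44 ± 0.18 and POLA1 at -0.42 ± 0.20. POLD3, an accessory subunit of polymerase delta, moved least, at -0.13 ± 0.23 (adjusted p = 0.77), from 166, 198 and 186 to 128, 206 and 176 and then 123, 168 and 147, with overlap at both times. Of the 7 genes, 2 fell at 24 h and 1 at 48 h, and the medians were -0.47 and -0.34.

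Among clamp, clamp loader and lagging-strand genes, PCNA, RFC4, FEN1 and LIG1 fell at 24 h and RFC4 also at 48 h, out of 8; the medians were -0.42 and -0.20. PCNA, the sliding clamp, read 3025, 2841 and 2048 at 0 h, 1933, 1445 and 1823 at 24 h, and 1977, 2278 and 2545 at 48 h. The highest 24 h array was just below the untreated baseline, the lowest of the 3, and the 48 h arrays overlapped with the baseline. The fall at 24 h was 0.60 ± 0.17 (adjusted p = 0.0246), and it was -0.44 (adjusted p = 0.17) without the truncated 24 h array. RFC4, a subunit of the clamp loader, read 1083, 1354 and 1326, then 840, 727 and 1049, then 808, 753 and 934. Both later groups lay below the baseline, with falls of 0.53 ± 0.15 (adjusted p = 0.0214) and 0.59 ± 0.15 (adjusted p = 0.0213). Without the truncated 24 h array the 24 h value was -0.42 (adjusted p = 0.13). The 48 h value was -0.68, -0.46 and -0.64 without the full-length, truncated and untreated series. It was called in none of these fits (limma adjusted p = 0.11, 0.12 and 0.09).

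FEN1, the nuclease that trims Okazaki fragments, and LIG1, the ligase that joins them, had their lowest signal on the truncated 24 h array. FEN1 read 2826, 2725 and 1952 at 0 h, 1977, 603 and 1401 at 24 h, and 1818, 1003 and 1790 at 48 h. The truncated 24 h array was far below the other 24 h arrays, and the full-length 24 h array was above the untreated baseline, so the groups overlapped. FEN1 fell at 24 h by 1.06 ± 0.24 (adjusted p = 0.00651), and the value was -0.67 (adjusted p = 0.061) without the truncated 24 h array. LIG1 was 137, 186 and 123 at 0 h, 70.2, 29.0 and 76.1 at 24 h, and 35.8, 88.3 and 70.2 at 48 h. Here every later array was below every baseline array, again with the truncated 24 h array lowest; the 24 h fall was 1.45 ± 0.44 (adjusted p = 0.034), or -0.78 (adjusted p = 0.24) without that array. RFC2 (-0.31 ± 0.16), RFC3 (-0.02 ± 0.14) and the single-strand binding gene RPA2 (0.13 ± 0.17) were not called at 24 h. RFC5, of the clamp loader, was the least changed of the group, at 0.00 ± 0.15 on its brightest probe set, from 1326, 1783 and 2128 to 1653, 1627 and 1873 and then 2249, 2356 and 2099.

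Among nucleotide supply genes, TK1 and TYMS fell at 24 h. TK1, the thymidine kinase of S phase cells, read 597, 666 and 588 at 0 h, 316, 245 and 423 at 24 h, and 350.9, 456.5 and 550.6 at 48 h. The 24 h and 48 h arrays were below all baseline arrays; the fall at 24 h was 0.94 ± 0.19 (adjusted p = 0.00327) and the 48 h difference was -0.47 ± 0.19 (adjusted p = 0.16). TYMS, which makes thymidylate, went from 4710, 4280 and 4230 to 2949, 2745 and 3314, then to 3729, 3319 and 4092. It lay below the baseline at both times without overlap and fell at 24 h by 0.56 ± 0.13 (adjusted p = 0.00916). The ribonucleotide reductase subunit RRM2 stood at -0.31 ± 0.13 (adjusted p = 0.12), and its partner RRM1 moved least, at 0.06 ± 0.21 (adjusted p = 0.89), from 1652, 929 and 1308 to 1562, 1481 and 980 and then 1244, 1555 and 1674, with overlap throughout. Thus 2 of the 4 genes fell at 24 h and 0 at 48 h, with medians of -0.43 and -0.31.

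Of the 4 genes that copy chromatin and DNA methylation, UHRF1 and DNMT1 fell at 24 h and UHRF1 at 48 h, with medians of -0.54 and -0.46. UHRF1, which brings the maintenance methyltransferase DNMT1 to newly copied DNA, read 2035, 1328 and 1589 at 0 h, 819, 868 and 768 at 24 h, and 832, 1135 and 1116 at 48 h. The later arrays all lay below the baseline, and the 24 h values were close to each other. Its falls were 0.99 ± 0.18 (1.99-fold; adjusted p = 0.00108) and 0.68 ± 0.18 (1.60-fold; adjusted p = 0.025). At 48 h the 3 series stood at -1.29, -0.23 and -0.51 from their own baselines. The 48 h value was -0.37 without the full-length series (limma adjusted p = 0.33) and -0.76 without the untreated series (adjusted p = 0.07). It was still called without the truncated series (-0.90, adjusted p = 0.012). DNMT1 read 1279, 1426 and 1561, then 1134, 920 and 923, then 951, 1523 and 1250; its 24 h arrays were below the baseline and its 48 h arrays overlapped. It fell at 24 h by 0.52 ± 0.17 (adjusted p = 0.0443), or -0.39 (adjusted p = 0.23) without the truncated 24 h array. CHAF1B, a subunit of the histone chaperone CAF-1, stood at -0.56 ± 0.31 (adjusted p = 0.26). CHAF1A, of the same chaperone, was the least changed, at 0.08 ± 0.23 (adjusted p = 0.87), from 264, 216 and 160 to 210, 226 and 226 and then 170, 196 and 165, with overlap. That probe set may cross-hybridize. The other CHAF1A probe sets above the filter stood at -0.56 ± 0.24 and -0.06 ± 0.40 at 24 h, neither called.

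Among cyclin E and E2F genes, E2F2 fell at 24 h and E2F2 and CCNE2 at 48 h. The median of these 6 genes was -0.30 at 24 h and -0.70 at 48 h, and 5 of the 6 were lower at 48 h than at 24 h, against 16 of all 45. The difference between groups of genes was not tested. E2F2, an activating E2F factor, read 220, 224 and 211 at 0 h, 128, 138 and 124 at 24 h, and 98.6, 96.7 and 108 at 48 h. The 3 series ran close together, every 48 h array below every 24 h array and every 24 h array below every baseline array. E2F2 fell by 0.75 ± 0.24 at 24 h (adjusted p = 0.045; -0.80, adjusted p = 0.088, without the truncated 24 h array) and by 1.11 ± 0.24 at 48 h (2.16-fold; adjusted p = 0.00976); from 24 to 48 h the difference was -0.36 (adjusted p = 0.47). CCNE2, a cyclin E gene, was 314, 301 and 187 at 0 h, 372, 228 and 263 at 24 h, and 111, 176 and 124 at 48 h. Baseline and 24 h arrays overlapped, and all 48 h arrays lay below both. Its 24 h value was 0.11 ± 0.25 (adjusted p = 0.83), the smallest of the group. CCNE2 fell at 48 h by 0.96 ± 0.25 (1.94-fold, adjusted p = 0.0286), and from 24 to 48 h by 1.07 ± 0.25 (adjusted p = 0.028). Its dimmer probe set stood at -0.38 ± 0.35 at 48 h (adjusted p = 0.60). With both probe sets averaged, the 48 h value was -0.67 (adjusted p = 0.084). Without the full-length series it was -0.68 (adjusted p = 0.28).

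CCNE1, the other cyclin E gene, had the largest 24 h difference of the group and lay just outside the threshold, at -0.80 ± 0.27 (adjusted p = 0.0503). It read 229, 266 and 280 at 0 h, 185, 99.4 and 175 at 24 h, and 177, 166 and 121 at 48 h, below the baseline at both times with no overlap. E2F8, a repressor E2F, stood at -0.35 ± 0.26 and -0.65 ± 0.26 at 24 and 48 h, and E2F7, another repressor, at 0.23 ± 0.17 and -0.31 ± 0.17, none of them called. E2F1 was at -0.25 ± 0.33 and -0.44 ± 0.33. On its brightest probe set it was higher in the untreated series at both times and lower in both construct series.

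**Figure D3:**
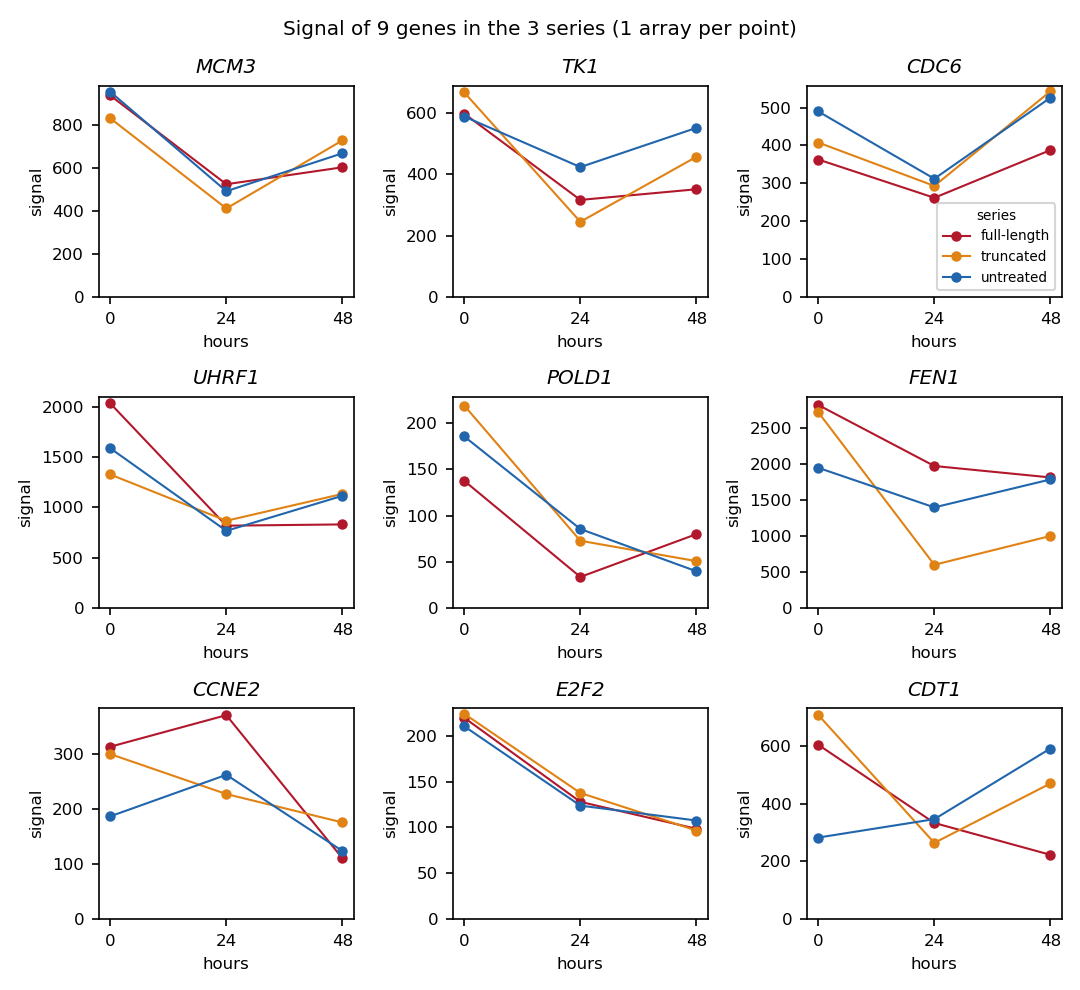
Signal (linear scale, from 0) of 9 genes at 0, 24 and 48 h, 1 line per series and 1 array per point. MCM3, TK1 and CDC6 are lowest at 24 h in all 3 series, E2F2 and the CCNE2 signal are lowest at 48 h, and CDT1 rises in the untreated series, from 282 to 591, while it is below its baseline in both construct series.

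Each series was also read on its own, with 1 array per group and no replicate check. At 24 h, 35, 36 and 36 of the 45 genes were lower (full-length, truncated, then untreated series), with medians of -0.40, -0.61 and -0.46 log2, against -0.03, 0.01 and -0.05 for all genes. At 48 h the counts were 40, 36 and 35 and the medians -0.43, -0.32 and -0.24, against -0.05, 0.00 and 0.02. Lower signals were thus found in untreated cells as well as in cells with a construct. Few genes passed 2-fold in a single series: at 24 h, 3 were lower by 2-fold in the full-length series (MCM4, POLD1 and UHRF1; 10.1% of all genes), 7 in the truncated series (CDT1, MCM3, POLD1, FEN1, LIG1, TK1 and CCNE1; 11.9%) and 2 in the untreated series (POLD1 and UHRF1; 9.94%). At 48 h there were 6, 5 and 3, against 10.7%, 9.50% and 9.37%. Higher by 2-fold at 24 h were 1 gene (GINS4), 0 and 0, against 9.77%, 15.4% and 8.94%, and at 48 h 1 (GINS4), 0 and 1 (CDT1), against 8.05%, 9.79% and 8.46%. Beside the shares of all genes, the counts of 2-fold lower genes were similar and those of 2-fold higher genes were small; neither was tested.

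No gene of the list was called in a comparison of constructs. For full-length NRSF over untreated cells, over 24 and 48 h and net of each series' baseline, limma called 0 of 45 genes. Of all genes, 0.00725% were called down and 0.00% up. At an unadjusted limma p below 0.05 there were 4 (CDT1, GINS4, PCNA and RFC5), against 570 of all 13797 genes. For truncated NRSF limma called 0, against 0.0362% down and 0.00% up. At an unadjusted p below 0.05 there were 3 (CDT1, PCNA and FEN1), against 1053 of all genes. For truncated over full-length NRSF limma called 0, against 0.0145% down and 0.00% up. Unadjusted, there were 5 (MCM4, GINS4, FEN1, RRM1 and UHRF1), against 855 of all genes. The list's medians were -0.10, -0.10 and 0.03 log2, against 0.00, 0.01 and 0.01 for all genes. This model has 2 residual degrees of freedom and a median SE of 0.37 log2, and the 95% interval lay within 2-fold in both directions for 16, 12 and 17 of the 45 genes. For the other genes the interval reached a 2-fold difference.

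CDT1 had the largest construct value apart from GINS4. It read 603, 707 and 282 at 0 h, 333, 264 and 346 at 24 h, and 223, 469 and 591 at 48 h. Both construct baselines were more than 2-fold above the untreated baseline, the untreated series was higher at later hours and the others were lower than their start, so the series already differed at 0 h on this probe set. Net of baseline, full-length NRSF stood at -1.83 ± 0.50 log2 (95% interval -2.88 to -0.78; limma adjusted p = 1) and truncated NRSF at -1.69 ± 0.50 (adjusted p = 0.29). Without the truncated 24 h array the full-length value, still -1.83, was called (adjusted p = 0.0243); it was the only call of the list in a construct comparison under the 9 alternatives tried. This probe set may cross-hybridize, and the other CDT1 probe set went another way. It was dimmer and read 96.3, 105 and 115 at 0 h, 85.8, 19.8 and 91.6 at 24 h, and 73.1, 37.9 and 45.1 at 48 h, with the untreated baseline highest and the untreated series lower at later hours. With both averaged, the construct values were -0.63 (adjusted p = 1) and -1.39 (adjusted p = 0.73).

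FEN1 stood at -1.51 ± 0.34 for truncated NRSF (95% interval -2.22 to -0.79; adjusted p = 0.12) and at -0.27 ± 0.34 for full-length NRSF (adjusted p = 1), and the difference between both constructs was -1.23 ± 0.34 (adjusted p = 0.41). Without the truncated 24 h array the truncated value was -1.20 (adjusted p = 0.183). With both FEN1 probe sets averaged it was -0.54 (adjusted p = 0.79), and the difference between the constructs was -0.52 (adjusted p = 0.88). PCNA stood at -0.70 ± 0.31 and -0.72 ± 0.31 (adjusted p = 1 and 0.60), and its untreated baseline was the lowest of the 3. E2F1 read 181, 144 and 74.1 at 0 h, 137, 85.8 and 97.7 at 24 h, and 93.3, 76.5 and 108 at 48 h, for construct values of -1.15 ± 0.66 and -1.29 ± 0.66 (adjusted p = 1 and 0.69). On this probe set it began higher in the construct series. Its other probe set read 121, 111 and 116 at 0 h, 139, 72.6 and 69.4 at 24 h, and 84.3, 77.6 and 127 at 48 h. With both averaged the construct values were -0.51 and -0.78 (adjusted p = 1 and 0.88). Compared at the same hour, with no test, the list's median difference from the untreated array was 0.06 and 0.05 log2 at 0 h, -0.04 and -0.10 at 24 h, and -0.16 and -0.03 at 48 h, for the full-length and truncated series.

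Many of these genes are read by more than 1 probe set, and for some the value depended on which was used. The 45 genes have 85 probe sets, of which 78 passed the filter. In a fit of every probe set (26491), 20 of the 78 fell at 24 h and 0 rose, against 6.47% and 6.62% of all probe sets, and 64 of 78 were lower. At 48 h, 7 fell and 0 rose, against 2.96% and 3.26%. Of 24 genes with at least 2 probe sets above the filter, all probe sets had 1 sign in 16 genes at 24 h and in 16 at 48 h. TK1 fell on both of its probe sets, by 0.94 and 0.98 log2, and TYMS on both that passed, by 0.56 and 0.65.

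RFC5, RRM1 and MCM10 differed between their probe sets. RFC5 stood at 0.00 on the brightest and fell on another by 0.56 ± 0.16 (adjusted p = 0.0237), where it read 767, 853 and 799 at 0 h, 551, 510 and 584 at 24 h, and 485, 616 and 571 at 48 h, with no overlap with the baseline. RRM1 stood at 0.06 on the brightest and fell by 0.58 ± 0.16 on the other (adjusted p = 0.0218), from 677, 878 and 766 to 447, 487 and 625. MCM10 stood at -0.10 on the brightest, at 0.27 ± 0.30 on a second (adjusted p = 0.64), and fell by 0.99 ± 0.25 on the third (adjusted p = 0.0111), from 214, 296 and 443 to 149, 138 and 174. The least changed genes of the list are thus not the same on every probe set. FEN1 stood at -0.43 ± 0.15 on its dimmer probe set (adjusted p = 0.0697), where the truncated 24 h array read 823 against 763 and 605 on the others.

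**Figure D4:**
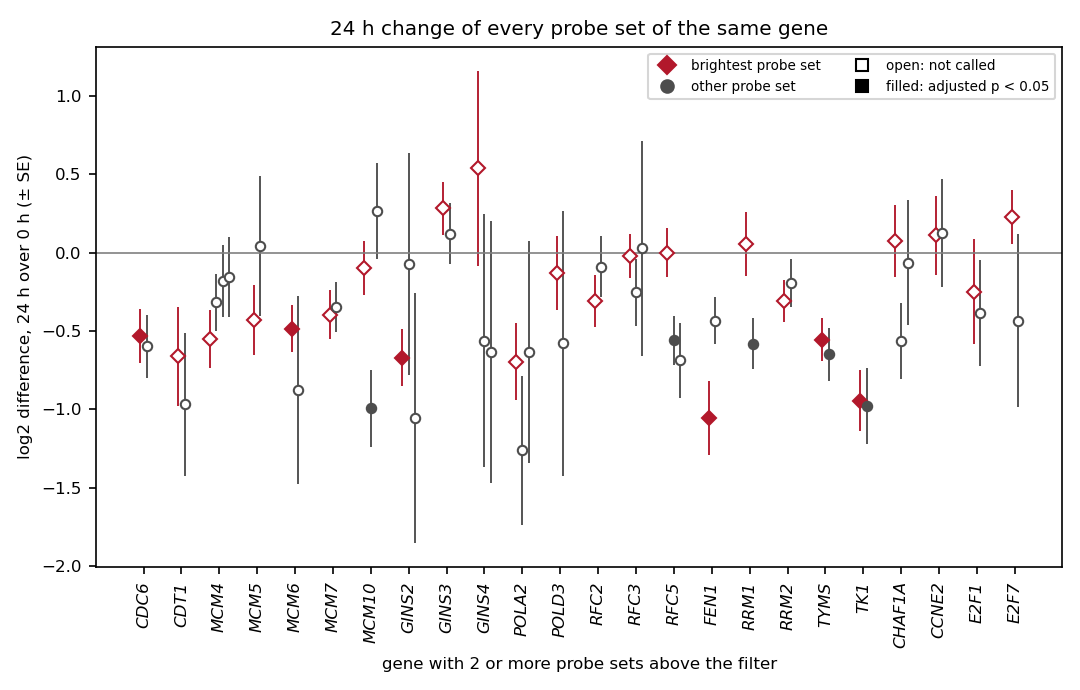
Difference of 24 h over 0 h, in log2 signal with its standard error, for every probe set above the filter of the 24 genes with 2 or more; red diamonds are the brightest probe set of a gene and grey circles the others, filled where the adjusted p over all 26491 probe sets was below 0.05. The dimmer probe sets of RFC5, RRM1 and MCM10 include a filled point below zero where the diamond is near zero.

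Other genes of the pathway, from lists of their own, gave the surroundings of these values. Of 42 other replication genes tested (44 listed), 13 were down and 4 up at 24 h (median -0.38), and 6 were down and 1 up at 48 h (median -0.24). Of 13 other E2F and pocket protein genes, 1 was down and 2 were up at 24 h (median 0.04): TFDP1, the partner of E2F proteins on DNA, fell by 0.71 ± 0.14 (adjusted p = 0.0021), and LIN37 and LIN52, of the DREAM complex that represses cell cycle genes, rose by 0.95 ± 0.23 (adjusted p = 0.00889) and 0.65 ± 0.19 (adjusted p = 0.0274). At 48 h 0 of them fell and 2 rose. Of 11 tested inhibitors, D cyclins and their kin (14 listed), 0 fell and 2 rose at 24 h: MYC by 0.65 ± 0.18 (adjusted p = 0.0203) and CDKN1A.

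CDKN1A, which encodes the cyclin-dependent kinase inhibitor p21, read 219, 221 and 129 at 0 h, 939, 871 and 708 at 24 h, and 315, 222 and 348 at 48 h. All 24 h arrays were above all others, in untreated and construct cells alike. It rose by 2.18 ± 0.22 log2 at 24 h (adjusted p = 7e-06) and fell from 24 to 48 h by 1.52 (adjusted p = 0.000922). The G2 and mitosis genes, the group most like the replication genes, were down in 18 of 30 genes at 24 h and in 18 of 30 at 48 h, with medians of -0.67 and -0.61 and a median of 0.04 from 24 to 48 h; for the 45 replication genes those medians were -0.49, -0.34 and 0.17. The difference between both lists was not tested.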

How the data were processed

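Arrays of 9 SK-N-AS samples were hybridized with biotin-labelled cRNA of Trizol-extracted total RNA, per the labels' protocols. The authors deposited linear signal intensities, 1 for each probe set, and the tool is GCOS per the submitters' processing notes, which name no version here. The trimmed mean signal is 150 on every array, so the arrays had been scaled to 1 target, and this was kept.

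Values were floored at the 25th percentile (8.27) and log2-transformed. Of 54675 probe sets, 41091 named 1 gene in the platform annotation and were used. The brightest stood for each of 19775 genes, and 13797 with a mean log2 signal above 4.2, the 40th percentile, were kept. Of the genes described here, the brightest probe sets of ORC6, CDT1 and CHAF1A are marked by their identifier as liable to cross-hybridize. Those of MCM2, MCM4, MCM5, MCM7, MCM10, CDC45, GINS2, GINS3, POLA2, POLE, RFC2, FEN1, RRM1, RRM2 and DNMT1 carry a mark for reading other transcripts.

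Tests used limma 3.58.1 in R 4.3.3 (lmFit, eBayes with a trend; tables read with version 1.17.8 of data.table), with Benjamini-Hochberg adjustment over all genes kept and a threshold of 0.05. The time model held series and time (4 residual degrees of freedom), and the construct model added 1 term per construct at 24 and 48 h (2 residual degrees of freedom), taking both hours as readings of 1 effect. Each SE and p-value joins the gene's own spread between arrays with the spread of genes of similar signal. The latter has most of the weight: the median total was 16.49 degrees of freedom in the time model and 16.26 in the construct model. Nothing says that the arrays came from separate cultures, so that spread may be technical, and the number of arrays limits the precision. Scripts were tested on simulated data. Alternatives covered scaling, floor, filter, probe set choice, variance trend and left-out arrays.

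Members and lists were chosen with earlier results of these data known. Described in detail are all members called at 24 or 48 h or in a construct comparison and, in each role group, those with the largest and smallest absolute 24 h change. Of other lists, up to 5 called genes with the largest 24 h change are given. The G2 and mitosis list is the exception, given only as counts and medians. Other genes were chosen after their values were seen.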

Additional observations from a re-analysis of the deposited data

How the results depend on the processing

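There were 12 alternatives for time and 9 for constructs, and no called value changed sign in them. Uncalled values near zero did, such as GINS4 (-0.33 to 1.21 at 24 h), MCM10 (-0.27 to 0.27), RFC5 (-0.41 to 0.09), RRM1 (-0.26 to 0.30) and CCNE2 (-0.08 to 0.41). At 24 h, 32 of the 45 genes were lower and 3 higher in all 13 settings, and at 48 h 33 and 2; the list's median stayed between -0.56 and -0.43 at 24 h and between -0.39 and -0.29 at 48 h. The counts of calls moved more. Against 17 genes down at 24 h, 6 down at 48 h, and 1 down and 1 up from 24 to 48 h, there were 10, 1, 0 and 0 with no filter on dim genes, 10, 3, 0 and 0 when probe sets of a gene were averaged, and 1, 0, 0 and 0 without the variance trend. Of all genes, 2.93%, 4.42% and 1.57% were down at 24 h in these settings and 0.82%, 1.55% and 0.036% at 48 h, so the 1 of 45 without the variance trend is near the share of all genes. Leaving out 1 series gave 6 to 11 genes at 24 h (3.18% to 5.18% of all genes), 1 to 3 at 48 h (0.59% to 2.20%), 0 to 1 down and 0 up from 24 to 48 h. Without the truncated 24 h array there were 8 at 24 h (MCM2, MCM3, MCM4, POLD1, POLE2, TK1, TYMS and UHRF1; 4.82% of all genes were down), 9 at 48 h (4.90%), 0 up from 24 to 48 h, and 1 (CDT1) down for full-length NRSF over untreated. Some of these settings had fewer arrays and, with no filter, more genes were tested. Why the counts moved was not tested. MCM3 kept its 24 h call in 12 of 12 alternatives, and MCM2, TK1 and UHRF1 lost it only without the variance trend. The series is a block in the time model, so each later array is set against its own baseline; the labels give no replicate numbers for any other pairing.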

Other observations

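Subunits of the same complexes outside the 45 genes add to the picture of POLD1 and RPA2. In polymerase delta, POLD2, the subunit that holds the complex together, fell at 24 h by 0.51 ± 0.17 log2 (limma adjusted p = 0.0432), while POLD4, its smallest subunit, rose by 1.37 ± 0.23 (adjusted p = 0.000717). POLD4 read 83.9, 149 and 153 at 0 h (full-length series, truncated series, untreated series), 287, 395 and 291 at 24 h, and 160, 200 and 214 at 48 h. All of its 24 h arrays were above all others, where POLD1 arrays were all below their baseline. In the single-strand binding complex RPA, RPA1 and RPA3 fell at 24 h, by 0.63 ± 0.18 (adjusted p = 0.0267) and 0.77 ± 0.15 (adjusted p = 0.00195), beside 0.13 ± 0.17 for RPA2. In the origin recognition complex, ORC4 rose at 24 h by 0.68 ± 0.18 (adjusted p = 0.0157) and at 48 h by 0.68 (adjusted p = 0.0269), on a probe set that may read other transcripts, beside values of -0.41 for ORC1 and 0.07 for ORC6. Differences between subunits were not tested.

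CDC7, the kinase that starts origin firing with DBF4, fell by 1.06 ± 0.15 at 24 h (adjusted p = 0.000119) and by 0.65 at 48 h (adjusted p = 0.0109). Its signal was 1212, 997 and 983 at 0 h, 513, 498 and 512 at 24 h, and 684, 683 and 657 at 48 h. The 3 series were nearly alike at each later hour and apart from the baseline. DBF4 stood at 0.11 ± 0.18 (adjusted p = 0.76). HELLS, a chromatin remodeler needed for DNA methylation, fell by 1.12 ± 0.17 and 1.24 (adjusted p = 0.000285 and 0.00032), and TIMELESS, of the fork protection complex, fell at 24 h by 1.04 ± 0.18 (adjusted p = 0.00108), at 48 h standing at -0.37 (adjusted p = 0.24). Of these, POLD2, RPA1, RPA3, ORC4 and DBF4 were chosen after their values were seen. CHTF18, of an alternative clamp loader, had the largest fall of the other replication genes, 1.96 ± 0.64 at 24 h (adjusted p = 0.0453), on a dim probe set with 1 array below the floor.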
